A study of Mus musculus with 6 samples.

Results

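The genes described here encode the subunits of the mitochondrial respiratory chain and ATP synthase that are carried by the nuclear genome, measured in mouse liver with Affymetrix microarrays. They were chosen by name: rows with a single gene symbol that starts with Nduf followed by a, b, c, s or v, is Sdha, Sdhb, Sdhc or Sdhd, starts with Uqcr, Cox4 to Cox8 or Atp5, or is Cyc1 or Cycs, with symbols ending in -ps left out and the row with the highest mean kept for each gene. This gave 90 genes of 18820 tested. The study compared livers of Pcyt2+/- mice (4 arrays) with livers of wild type mice (2 arrays, numbered 3 and 4 in the labels), all on the C57BL6 background, aged 2 months and snap frozen. Pcyt2 encodes the enzyme that makes CDP-ethanolamine, a precursor of phosphatidylethanolamine, which is a major lipid of the mitochondrial inner membrane. Titles of the mutant samples read knock-out, but their genotype is given as Pcyt2+/-, the heterozygote, which is used here. Neither group carries another allele or a treatment in the labels, and the sources used here do not state sex or feeding. The labels number the animals of each group but do not say whether litters or days of collection were shared. The tissue was whole liver, so fewer cells of a type and less RNA per cell cannot be told apart, and no mitochondrial mass, protein or respiration was measured.

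Values are log2 signals, and a difference is the Pcyt2+/- mean minus the wild type mean unless stated. Most rows lay in a narrow low band: 94.4% of the 28996 rows had a mean between 4 and 5, so in this band differences on the log2 scale understate any change in RNA. Of the 90 genes, 31 (34.4%) had a mean above 5, against 4.21% of all genes tested, and the other 59 had a mean of 5 or less. Signal also depends on the probes, so a high or bright signal marks a well measured gene here and not a more abundant RNA. Pcyt2 itself was in the band, at 4.64, 4.66, 4.67 and 4.604 in Pcyt2+/- and 4.89 and 4.80 in wild type, a difference of -0.20 with adjusted p = 0.264 by limma, and where its probes lie relative to the deleted part is not given. All 7 hepatocyte markers measured had a mean above 5, and of the other cell types' markers 1 stellate gene did. The summed log2 signal of the hepatocyte markers was 65.3 to 66.3 in Pcyt2+/- and 67.6 to 67.9 in wild type. Tat and Cps1 had the largest differences, -1.13 and -0.56 (adjusted p = 0.219 and 0.529 by limma). The other markers, Alb, Apoa1, Ttr, Cyp3a11 and Serpina1d, had overlapping groups and differed by -0.060 (Ttr) to -0.012 (Serpina1d). The part of these differences in the results below was not tested.

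Complex I (NADH dehydrogenase) and complex II (succinate dehydrogenase) pass electrons to coenzyme Q, complex III hands them to cytochrome c, and complex IV reduces oxygen. The protons pumped on the way drive ATP synthase, whose membrane part (Fo) turns against the catalytic part (F1). Hepatocytes are rich in mitochondria, which supply the energy for gluconeogenesis and urea synthesis. Most subunits are nuclear genes, a few are made from mitochondrial DNA, and 0 of 26 genes on the list of mitochondrial DNA genes were measured here.

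The c subunit of Fo, which forms the rotor ring, is encoded by 3 genes, Atp5g1, Atp5g2 and Atp5g3, that give the same mature protein from separate promoters. Their differences, all lower in Pcyt2+/-, are described below. Cycs, the gene of somatic cytochrome c, had the opposite pattern on the array that was lowest for most respiratory chain and ATP synthase genes with a mean above 5. The 250 bases before the start site of these 4 genes, all on the minus strand and printed 5' to 3' from RefSeq's GRCm38.p6 promoters, are at chr11:96075632-96075881 (Atp5g1), chr15:102671048-102671297 (Atp5g2), chr2:73911327-73911576 (Atp5g3) and chr6:50566570-50566819 (Cycs). Capitals mark the core motif of the transcription factor NRF1, GCATGCGC, on either strand; in Atp5g2 the matches on the 2 strands overlap.
Atp5g1: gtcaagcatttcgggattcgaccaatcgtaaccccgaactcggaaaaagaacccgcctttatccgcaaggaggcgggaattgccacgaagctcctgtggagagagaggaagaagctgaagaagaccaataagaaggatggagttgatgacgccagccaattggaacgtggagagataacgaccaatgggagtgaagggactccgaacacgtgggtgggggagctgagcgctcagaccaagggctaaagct
Atp5g2: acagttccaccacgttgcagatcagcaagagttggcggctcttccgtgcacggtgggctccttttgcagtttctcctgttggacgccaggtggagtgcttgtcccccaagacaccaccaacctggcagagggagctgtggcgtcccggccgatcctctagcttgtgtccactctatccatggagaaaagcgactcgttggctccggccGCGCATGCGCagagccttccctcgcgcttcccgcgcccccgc
Atp5g3: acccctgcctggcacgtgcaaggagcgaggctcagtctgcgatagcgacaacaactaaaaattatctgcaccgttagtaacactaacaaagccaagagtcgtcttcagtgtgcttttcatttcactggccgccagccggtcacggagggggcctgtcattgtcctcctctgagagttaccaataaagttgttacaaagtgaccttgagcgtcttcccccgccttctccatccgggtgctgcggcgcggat
Cycs: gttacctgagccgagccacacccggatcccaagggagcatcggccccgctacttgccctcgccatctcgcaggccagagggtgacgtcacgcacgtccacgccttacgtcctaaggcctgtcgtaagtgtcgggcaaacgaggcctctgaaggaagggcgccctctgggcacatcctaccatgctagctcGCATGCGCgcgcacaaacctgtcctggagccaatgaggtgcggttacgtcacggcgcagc

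The core stood 60 bases before the start in Cycs and 42 and 40 bases before it in Atp5g2, and no match in Atp5g1 or Atp5g3 says only that these letters are not in this window. NRF1 and the ETS factor GABP are known regulators of nuclear respiratory genes. RefSeq promoters matched 74 of the 90 genes (79 windows of 300 bases, from 250 before to 50 after the start). The NRF1 core was in 13 of the 74 (17.6%), against 4.27% of the other genes tested and 3.05% of all genes in the promoter table. The ETS motif CCGGAAG was in 18 (24.3%, against 13.6% of other genes tested and 9.93% of all in the table), and the YY1 motif AANATGGCG in 10 (13.5%, against 3.89% and 2.76%). All were searched on both strands. Any of the 3 motifs was in 35 genes (47.3%), against 19.8% of the other genes tested, with a median GC content of 58.3% and 57.7%. The median difference between genotypes was -0.035 in the 13 genes with the NRF1 core and -0.019 in the 61 without it. For the ETS motif the order was reversed, at -0.022 in the 18 genes with it and -0.025 in the 56 without. For the YY1 motif it was -0.032 in the 10 with it and -0.022 in the 64 without. These medians are a description with no test.

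No gene of the respiratory chain or ATP synthase passed the test between genotypes. By limma with Benjamini-Hochberg adjustment over all 18820 genes, 0 of the 90 had an adjusted p under 0.05, as had 0% of all genes tested, and the smallest adjusted p was 0.131 (Atp5g3). At an unadjusted limma p under 0.05, 13 of the 90 (14.4%) were lower in Pcyt2+/-, against 3.44% of all genes, and 1 (Ndufs5) was higher, against 1.86%. The Pcyt2+/- mean was the lower one in 68 of the 90 (75.6%), against 51.9% of all genes tested. The median difference was -0.024, beside -0.00073 for all genes. Differences ran from -0.26 (Ndufv2) to 0.078 (Cycs), and 13 of the 90 genes differed by at least 0.1, against 334 of all 18820. Of the 13, 12 were among the 31 genes with a mean above 5, where 252 of all 792 genes differed as much. The other 1 was among the 59 genes with a mean of 5 or less, against 82 of all 18028.

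How far these counts stood from the background depended on signal level. In 20 of the 90 genes (22.2%) all 4 Pcyt2+/- arrays were below both wild type arrays, against 7.17% of all genes tested, and in 1 all were above, against 5.67%. Among the 31 genes with a mean above 5 the count was 6 (19.4%), near the 15.3% of all 792 genes above that level, and 4 of the 31 (12.9%) had an unadjusted limma p under 0.05 and a lower mean, below the background of 14.6%. Among the 59 dimmer genes it was 14 (23.7%, against 6.82%), and 9 (15.3%, against 2.95%) had such a p, with 1 higher (against 1.7%). Means were lower in 25 of the 31 (against 62.4% of genes above 5) and in 43 of the 59 (against 51.4% of dimmer genes). The size of the difference went the other way: the median was -0.061 in the 31 brighter genes, where genes above 5 that are not members had -0.019, and -0.017 in the 59 dimmer ones. Quantile normalization lowered the count of 20 to 13 (14.4%, against 6.97%) and that of 6 to 2 (against 11.2%), with 65 of the 90 means still lower and a median of -0.019. It also moved the median of all genes above 5 from -0.020 to 0.0011. Without wild type replicate 3 the count was 39 (43.3%), where the background also rose, to 19.4%.

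**Figure D1:**
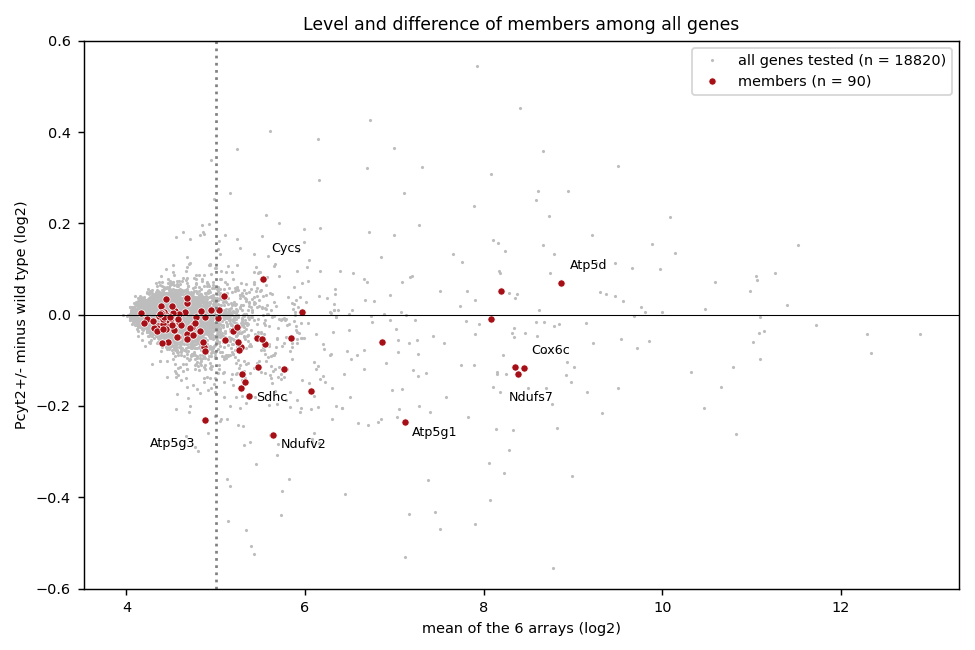
Difference between genotypes (Pcyt2+/- minus wild type, log2) against the mean of the 6 arrays (log2), with each of the 18820 genes tested in grey and the 90 respiratory chain and ATP synthase genes in red. The dotted line marks a mean of 5, and 20 genes lie beyond the drawn range of -0.6 to 0.6; most red points sit at or below 0, from -0.26 for Ndufv2 to 0.078 for Cycs.

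In complex I, 5 of 6 core subunits and 22 of 28 accessory subunits had a lower mean in Pcyt2+/-, with medians of -0.033 and -0.023. Ndufv2, an iron-sulfur subunit of the NADH-oxidising module, had the largest difference of all 90 genes. Its signal was 5.63, 5.53, 5.44 and 5.63 in Pcyt2+/- and 5.78 and 5.86 in wild type. All Pcyt2+/- arrays were thus below both wild type arrays, by a mean of -0.26 (SE 0.055, 1.20-fold lower, unadjusted p = 0.00226 and adjusted p = 0.529 by limma). Leaving out 1 array at a time gave -0.30 to -0.22. Ndufs7, the core subunit next to the coenzyme Q site and the brightest of the complex, was at 8.63, 8.32, 8.004 and 8.38 against 8.38 and 8.55. Its groups overlapped, with replicate 1 of Pcyt2+/- the highest array and replicate 3 the lowest, and the difference was -0.13 (SE 0.15, adjusted p = 0.980). Of the other core subunits, Ndufs1 lay below both wild type arrays by -0.024, Ndufv1 differed by -0.042, and Ndufs3 by 0.0063, and the 95% intervals of all 3 included 0.

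Among the accessory subunits, which surround the core and are needed for its assembly, 5 of 28 (17.9%, against 7.17% of all genes tested) lay below both wild type arrays and 1 (3.57%, against 5.67%) above. The widest difference was that of Ndufb11, a membrane arm subunit, at 6.17, 6.10, 5.65 and 6.10 in Pcyt2+/- and 5.96 and 6.38 in wild type. Its groups overlapped, and the value of -0.17 (SE 0.17) became 0.042 without wild type replicate 4. The brightest accessory gene, Ndufb4, also in the membrane arm, differed by -0.061 (SE 0.12) and turned to 0.0050 without Pcyt2+/- replicate 3. The 4 accessory genes with the smallest p had a mean of 5 or less, and in 3 of them the mean was lower in Pcyt2+/-: Ndufa6 differed by -0.030 and Ndufb2 by -0.029 (both adjusted p = 0.913), and Ndufb10 by -0.024 (adjusted p = 0.936). Ndufs5 had the smallest p of the accessory genes and was the single gene of the 90 with all Pcyt2+/- arrays above wild type, at 4.47, 4.45, 4.46 and 4.46 against 4.42 and 4.43. That difference was 0.035 (SE 0.011, adjusted p = 0.817 by limma) within the low band. Ndufa10 had the largest positive difference of the complex, 0.042 (SE 0.028), with overlapping groups.

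The name rule also caught 7 assembly factors (Ndufaf1 to Ndufaf7), which help build complex I and are not part of it. None had a mean above 5 and their median difference was -0.0032. Ndufaf4 was below wild type on all arrays, by -0.036 (SE 0.014, adjusted p = 0.913). The groups of Ndufaf1 (-0.021), Ndufaf5 (-0.015), Ndufaf2 (0.0054) and Ndufaf3 (-0.00098) overlapped. Without these 7, 63 of 83 subunit genes had a lower mean, with a median of -0.026.

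**Figure D2:**
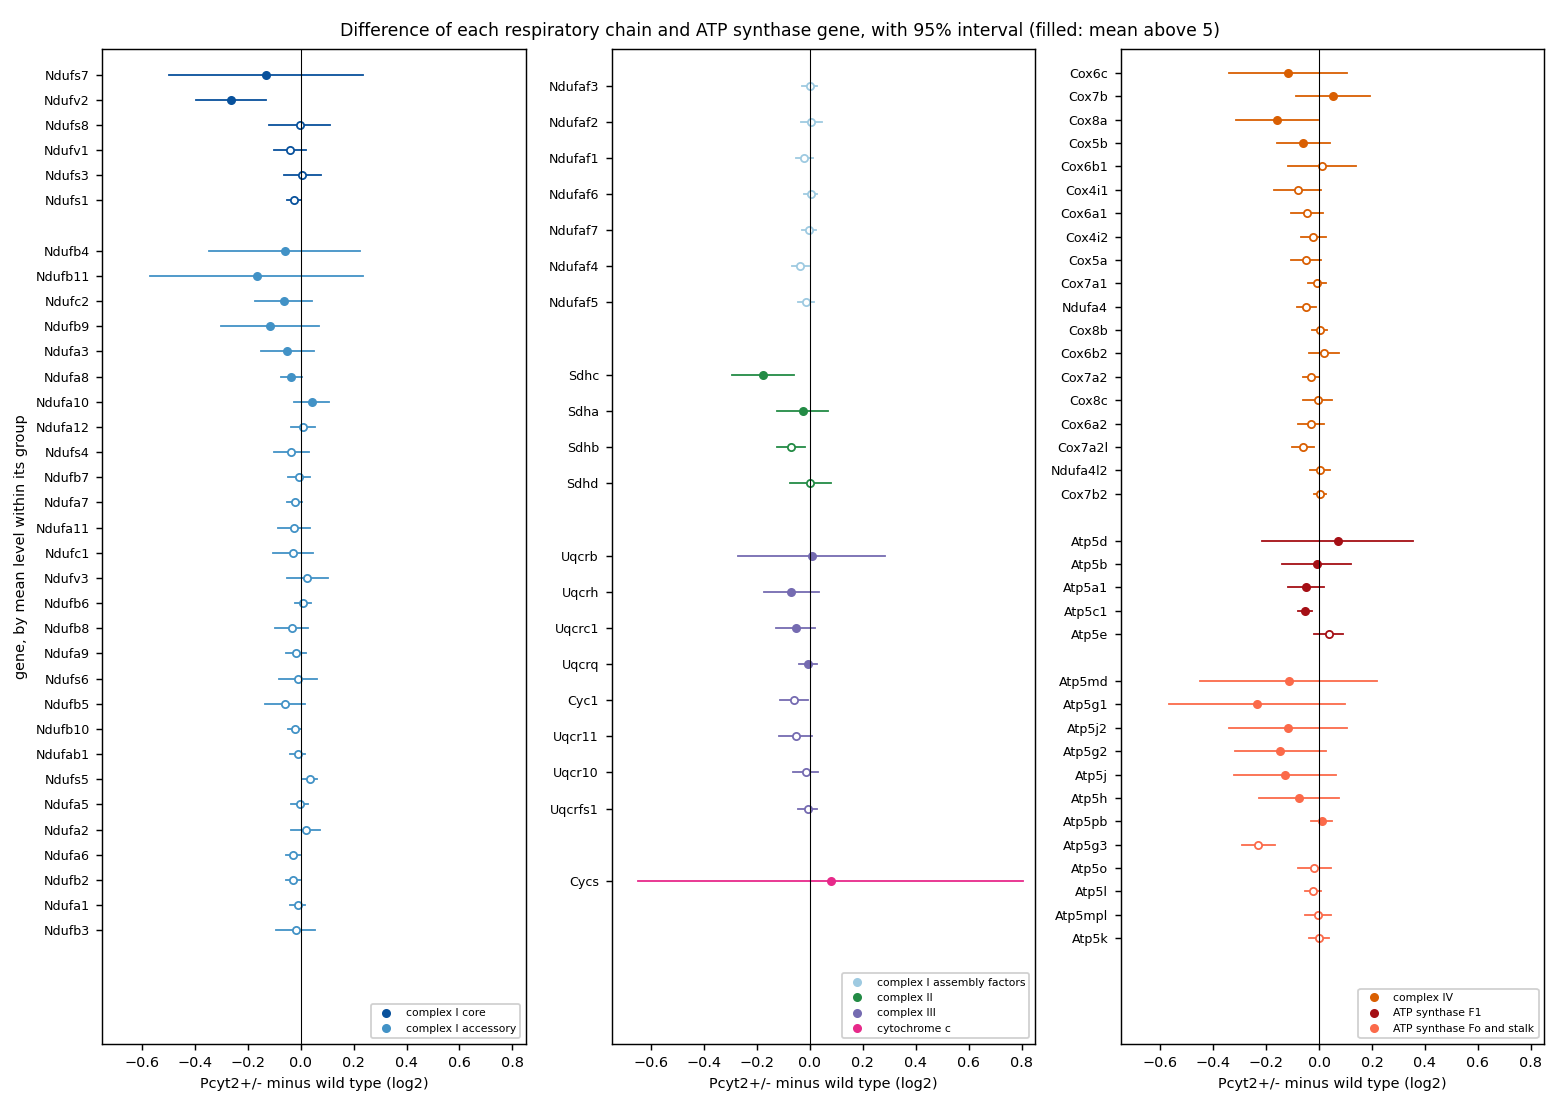
Difference between genotypes (x axis, Pcyt2+/- minus wild type, log2) for each of the 90 genes, grouped by complex, with the 95% interval from limma as a line; filled points have a mean above 5 and open points do not. The widest interval is that of Cycs, and among others the points of Ndufv2, Sdhc, Atp5g3 and Atp5c1 lie with their intervals left of 0.

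Complex II, which is also an enzyme of the citric acid cycle and is encoded by nuclear genes alone, had 3 of 4 lower means. Sdhc, a membrane anchor, was at 5.36, 5.33, 5.24 and 5.31 in Pcyt2+/- and 5.57 and 5.41 in wild type. The groups did not overlap, but 1 wild type array stood well above the other: the difference was -0.18 (SE 0.049, adjusted p = 0.749) and -0.098 without wild type replicate 3. Sdhb, the iron-sulfur subunit, was at 4.87, 4.87, 4.80 and 4.82 against 4.91 and 4.91, a difference of -0.071 (SE 0.022, adjusted p = 0.817). Leaving out single arrays kept this value between -0.082 and -0.059. Sdha, the flavoprotein where succinate is oxidised, differed by -0.027 with overlapping groups and by 0.0068 without wild type replicate 3, and Sdhd, the other anchor, by 0.0020.

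In complex III, 7 of 8 genes had a lower mean (median -0.035) and 3 (37.5%, against 7.17% of all genes tested and 15.3% of those above 5) lay below both wild type arrays. Cyc1, the cytochrome c1 subunit that reduces cytochrome c, was at 4.84, 4.83, 4.81 and 4.86 in Pcyt2+/- and 4.86 and 4.93 in wild type. Its highest Pcyt2+/- array was just under the lowest wild type array, and the difference of -0.060 (SE 0.022, adjusted p = 0.886) was -0.024 without wild type replicate 4. The core protein Uqcrc1 (-0.055) and the small subunit Uqcr11 (-0.054) were the others below both wild type arrays. The second row of Uqcr11 differed by -0.062 with overlapping groups. Uqcrh, the hinge protein, had the largest difference of the complex, -0.070 (SE 0.043, adjusted p = 0.955), but its groups overlapped, since Pcyt2+/- replicate 1 (5.36) was level with the higher wild type array. In its second row, in the low band, the groups did not overlap, with a difference of -0.062. Uqcrb, the ubiquinone-binding subunit and the brightest gene of the complex, did not share this direction. It was at 6.10, 5.88, 6.13 and 5.75 against 5.85 and 6.07, with overlapping groups and a difference of 0.0063 (SE 0.12), and its other 2 rows gave -0.016 and -0.041.

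Cycs carried the widest spread of all. Its signal was 5.47, 5.16, 6.32 and 5.26 in Pcyt2+/- and 5.38 and 5.57 in wild type. Replicate 3 of Pcyt2+/- was far above the other 5 arrays, so that the difference of 0.078 (SE 0.31, adjusted p = 0.996) became -0.18 without it. The second row of Cycs gave the same order at the top, 5.31 on that array against 4.78 to 5.01 on the others, while the third, in the low band, was at 4.21 to 4.30. Cycs has processed copies in the mouse genome, and whether probes read them was not tested.

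In complex IV, 13 of 19 genes had a lower mean (median -0.031) and 5 (26.3%, against 7.17% of all genes tested) lay below both wild type arrays. Cox6c, the brightest, was at 8.55, 8.51, 8.31 and 8.26 in Pcyt2+/- and 8.43 and 8.62 in wild type. The groups overlapped, with a difference of -0.12 (SE 0.094). In the second row of Cox6c, with a mean of 7.95, the groups did not overlap, with a difference of -0.20 (SE 0.079). Cox7b, a small nuclear subunit, had 2 rows that were both higher in Pcyt2+/- (0.052 and 0.0066), with overlapping groups. Cox8a, the ubiquitous form of the smallest subunit, was at 5.28, 5.26, 5.11 and 5.29 against 5.48 and 5.31. Its top Pcyt2+/- arrays were close to wild type replicate 4, and the difference of -0.16 (SE 0.065, adjusted p = 0.932) was -0.072 without wild type replicate 3.

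Several complex IV subunits exist as forms that differ between tissues, the liver or ubiquitous form and a form known from heart, skeletal muscle, lung or testis. Most of the ubiquitous forms had a lower mean in Pcyt2+/-, with differences of -0.081 for Cox4i1 (SE 0.038), -0.046 for Cox6a1, -0.031 for Cox7a2 and -0.16 for Cox8a. Exceptions were Cox6b1, at 0.010, and Cox7b, at 0.052. The forms of other tissues, Cox4i2, Cox6a2, Cox6b2, Cox7a1, Cox7b2, Cox8b and Cox8c, lay in the low band. They differed by -0.031 (Cox6a2) to 0.018 (Cox6b2), and none had an unadjusted limma p under 0.05. The ubiquitous Cox4i1, Cox6a1, Cox6b1 and Cox7a2 lay in that band too, at means of 4.88, 4.75, 4.95 and 4.45. None of the 6 muscle markers had a mean above 5, and their summed log2 signal was 27.6 to 27.7 in Pcyt2+/- and 27.6 on both wild type arrays. Cox7a2l, a supercomplex assembly protein that resembles Cox7a2, was at 4.36, 4.40, 4.36 and 4.39 against 4.46 and 4.42. All Pcyt2+/- arrays were lower, by -0.062 (SE 0.017, adjusted p = 0.749), and the range without single arrays was -0.079 to -0.045. The second row of Cox7a2l differed by -0.023 (SE 0.019), with overlapping groups. Ndufa4, named for complex I but a subunit of complex IV, differed by -0.049 (SE 0.015, adjusted p = 0.817) and was below both wild type arrays, and its relative Ndufa4l2 differed by 0.0039.

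The ATP synthase gave different values for its catalytic and its membrane part. Of the 5 F1 genes 3 had a lower mean, with a median of -0.0093 that turned to 0.041 under quantile normalization. Of the 12 genes of Fo and the stalk 10 had a lower mean, with a median of -0.096 that was -0.040 under quantile normalization, -0.039 without Pcyt2+/- replicate 3 and -0.036 without wild type replicate 4. The difference between F1 and Fo medians was not tested. Atp5d, the delta subunit and the brightest of the 90 genes, was at 9.02, 8.98, 8.57 and 8.96 in Pcyt2+/- and 8.82 and 8.80 in wild type. Pcyt2+/- replicates 1, 2 and 4 were above both wild type arrays and replicate 3 below, with a difference of 0.069 (SE 0.12). The catalytic beta subunit gene Atp5b differed by -0.0093 (SE 0.055; 0.046 under quantile normalization), and the alpha subunit gene Atp5a1 by -0.050 (SE 0.029). Atp5e, the gene of the small epsilon subunit, differed by 0.036 (SE 0.023) with overlapping groups.

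Atp5c1, the gene of the gamma subunit that forms the central shaft, had very little spread within groups. It was at 5.50, 5.50, 5.50 and 5.48 in Pcyt2+/- and 5.54 and 5.56 in wild type. The groups did not overlap, and the difference was -0.054 (SE 0.011, 1.04-fold lower, unadjusted p = 0.0018 and adjusted p = 0.511 by limma). Under quantile normalization it was -0.016.

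The 3 c subunit genes all had lower means in Pcyt2+/-. Atp5g3 was at 4.84, 4.77, 4.80 and 4.82 against 5.08 and 5.001 in wild type. Its groups were separated by more than the spread within either one: the difference was -0.23 (SE 0.026, 1.17-fold lower), the unadjusted p 5.57e-05 and the adjusted p 0.131 by limma. With a prior that follows the signal level and is robust to outlying variances, Atp5g3 had an adjusted p of 0.0407 and was the 1 member among 9 genes (0.0478%) called; over the other alternatives its adjusted p ran from 0.0671 to 0.964. Since its signal is in the low band, subtracting each array's median signal on the linear scale gave a larger difference of -0.77 (adjusted p = 0.0671). Without single arrays the difference was -0.27 to -0.19.

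Atp5g1 was at 7.25, 7.12, 6.70 and 7.07 in Pcyt2+/- and 7.19 and 7.35 in wild type. The groups overlapped, since replicate 1 was above the lower wild type array, and the difference of -0.23 (SE 0.14, adjusted p = 0.954) was -0.12 without replicate 3. Atp5g2 was at 5.29, 5.36, 5.13 and 5.34 against 5.51 and 5.35. Here too the groups overlapped, and the difference of -0.15 (SE 0.072, adjusted p = 0.945) was -0.065 without wild type replicate 3. Atp5g1 had 2 rows and Atp5g2 had 3, all lower in Pcyt2+/-, from -0.23 to -0.12 and from -0.15 to -0.10. In the rest of Fo, Atp5md, the brightest, differed by -0.11 (SE 0.14) and by 0.030 without wild type replicate 4, and Atp5pb, the peripheral stalk b subunit gene, by 0.0093 in 1 of its rows with the other row lower. Atp5l, a small subunit at the dimer interface, differed by -0.023 (SE 0.012) with overlapping groups in the row used. All 6 of its rows, in the low band, were lower in Pcyt2+/-, from -0.060 to -0.023. In each row other than that used, all Pcyt2+/- arrays were below both wild type arrays.

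**Figure D3:**
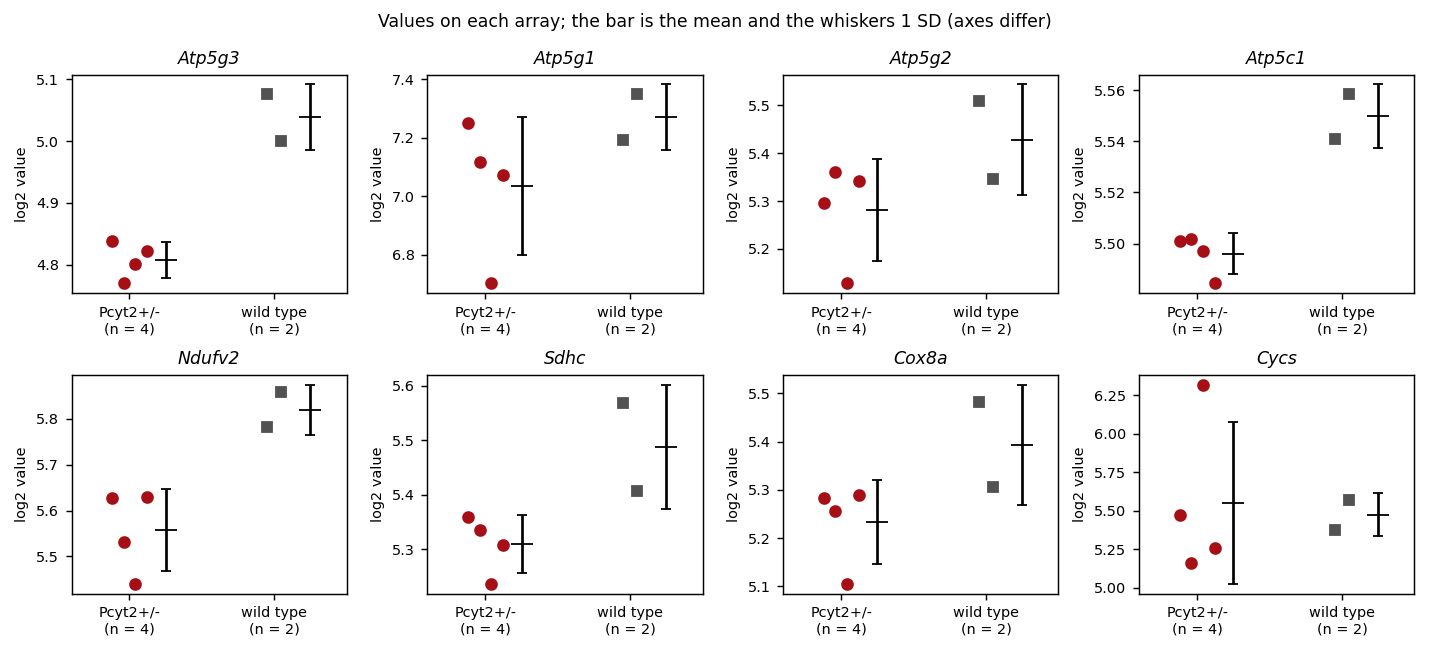
Log2 signal of 8 genes on each array, with Pcyt2+/- (n = 4, circles) and wild type (n = 2, squares) on the x axis and a mean bar with 1 SD whiskers beside the points; y axes differ between panels. Groups are apart in Atp5g3, Atp5c1, Ndufv2, Sdhc and Cox8a and overlap in Atp5g1, Atp5g2 and Cycs, where 1 Pcyt2+/- array is at 6.32.

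The brighter genes varied together across the 6 arrays, within as well as between genotypes. Pcyt2+/- replicate 3 was the lowest array in 22 of the 31 genes above 5 (71.0%) and in 317 of the 761 other genes above 5 (41.7%). Wild type replicate 4 was the highest in 13 (41.9%), against 26.9%. The median deviation of the 31 genes from the mean of the 6 arrays was 0.048, 0.0091, -0.13 and -0.015 in Pcyt2+/- and 0.0067 and 0.062 in wild type, and that of the other genes above 5 was 0.021, 0.0065, -0.052, -0.011, 0.0031 and 0.021. The arrays thus stood in the same order in both sets of genes apart from wild type replicate 4 and Pcyt2+/- replicate 1, with wider steps in the respiratory chain genes. The sources used here give no RNA quality for these arrays, and its part in this pattern was not tested.

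**Figure D4:**
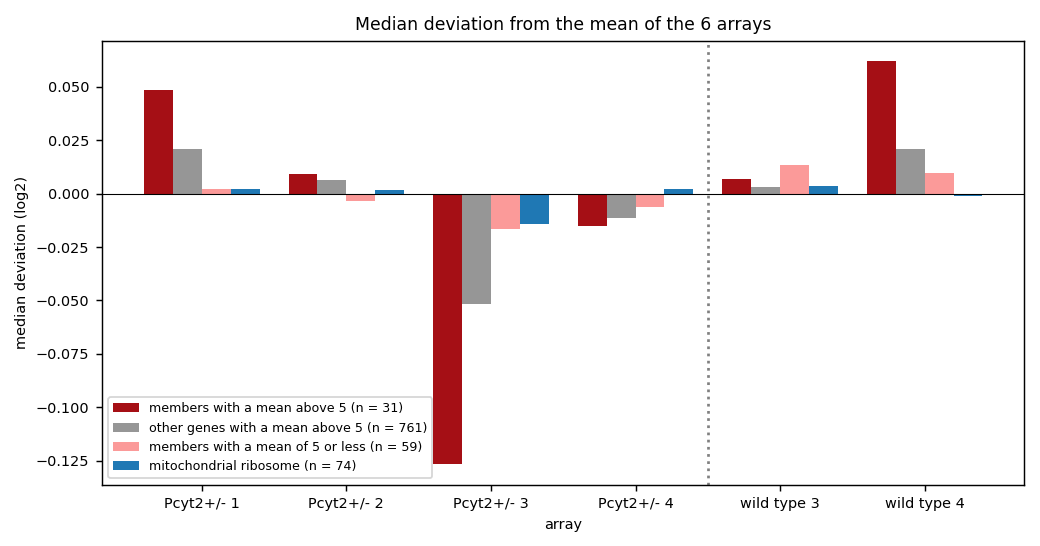
Median deviation from the mean of the 6 arrays (y axis, log2) on each array (x axis) for the 31 members above 5, the 761 other genes above 5, the 59 dimmer members and 74 mitochondrial ribosome genes. Replicate 3 of Pcyt2+/- is lowest in all 4 sets, at -0.13 for the brighter members, and the bars of replicate 1 and wild type replicate 4 are the highest for that set.

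Over pairs of the 31 genes, Pearson's r across the 6 arrays had a median of 0.52, and 83.7% of 465 pairs were above 0; among pairs of other genes above 5 the median was 0.15 (60.3% of 289180). Both describe arrays shared by all genes and carry no p. Cycs was the gene most unlike the others, with a median r of -0.63, followed by Uqcrb at -0.087. Leaving out Pcyt2+/- replicate 3 changed the median difference of the 31 genes from -0.061 to -0.040, and leaving out wild type replicate 4 changed it to -0.027; 24 and 22 of the 31 means were then still lower.

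**Figure D5:**
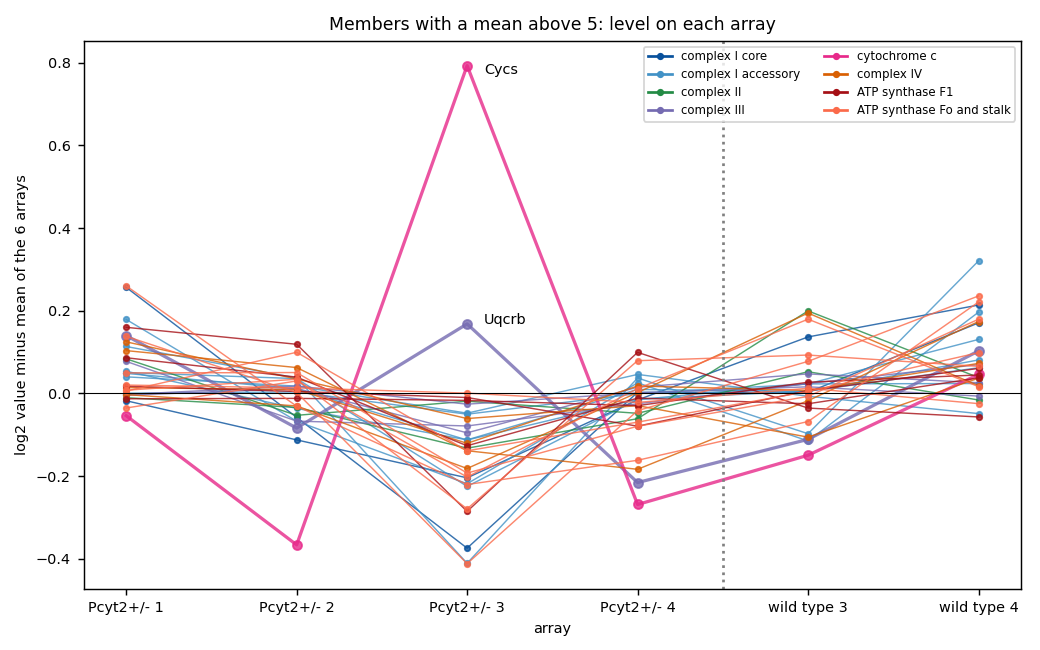
Level of each of the 31 genes above 5 on each array (y axis, log2 value minus the gene's mean over 6 arrays), coloured by complex, with the dotted line between the genotypes. Most lines dip at Pcyt2+/- replicate 3 and end high at wild type replicate 4, while Cycs and Uqcrb peak at Pcyt2+/- replicate 3.

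The genes that make, regulate and house the respiratory chain were followed through 5 further lists. No gene in them passed limma's adjusted threshold. Of 15 biogenesis regulators measured (of 16 listed), 5 (33.3%, against 7.17% of all genes tested) lay below both wild type arrays and 0 above (against 5.67%), 2 (13.3%, against 3.44%) were lower at an unadjusted p under 0.05, and the median was -0.0098. Ppargc1a, the coactivator that drives mitochondrial biogenesis, differed by -0.033 (SE 0.0098, adjusted p = 0.796) and the mitochondrial deacetylase Sirt3 by -0.037 (SE 0.014, adjusted p = 0.907). The others below wild type on all arrays were Esrra, Gabpa and Yy1, nuclear factors that act on respiratory genes, at -0.018, -0.025 and -0.031. Ppara, the one regulator above 5, differed by -0.051 with overlapping groups. Nrf1 (0.0024), Tfam (-0.0029), Tfb2m (-0.0098), Polrmt (-0.018), Gabpb1 (-0.0090), Ppargc1b (0.011), Pprc1 (0.0056), Nrip1 (0.0022) and Atpif1 (-0.0024) had overlapping groups as well.

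The 37 assembly factors measured beside those in the name rule (of 40 listed) were all in the low band, with a median of -0.0068. Below both wild type arrays lay 4 (10.8%, against 7.17% of all genes tested), and above both lay 1 (2.7%, against 5.67%). At an unadjusted limma p under 0.05, 0 were higher (against 1.86%) and 1 (2.7%, against 3.44%) was lower, Timmdc1 (-0.034). Cox14 and Nubpl came next, at -0.024 and -0.023. The 74 mitochondrial ribosome genes, which translate the chain's mitochondrially encoded subunits, had a median of -0.0033, with 5 lower (6.76%, against 3.44% of all genes tested) and 1 higher (1.35%, against 1.86%) at that p. In 9 (12.2%, against 7.17%) all Pcyt2+/- arrays were below wild type and in 2 (2.7%, against 5.67%) above. Mrps18b (-0.084), Mrps16 (-0.048) and Mrpl16 (-0.061) had the smallest p. Of 12 coenzyme Q genes (of 13 listed) 6 were lower and 6 higher in mean, and the kinase-like Coq8a was higher at 0.13 (SE 0.047, adjusted p = 0.884), with overlapping groups. Coq9 and Coq10b differed by -0.075 and -0.046, also with overlapping groups.

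The list closest to Pcyt2's own product, genes of inner membrane lipids and cristae, had 16 of 18 members measured, where 2 (12.5%, against 3.44% of all genes) had a lower and 1 (6.25%, against 1.86%) a higher mean with an unadjusted p under 0.05, and a median of -0.013. Chchd3, a component of the complex that shapes cristae junctions, was below both wild type arrays by -0.072 (SE 0.021, adjusted p = 0.784). Ptpmt1, a phosphatase of cardiolipin synthesis, differed by -0.049 and Prelid1, which carries phosphatidic acid between the mitochondrial membranes, by 0.11 (SE 0.041, adjusted p = 0.913). Pisd, which makes phosphatidylethanolamine inside mitochondria, independently of Pcyt2, differed by 0.015 (SE 0.016) with overlapping groups; it was chosen after its values were seen.

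With 4 against 2 arrays an exact two-sided permutation test of a single gene has 15 divisions and cannot give a p below 0.0667. Of the 90 genes 14 reached that value. The share of all genes tested that reach it was not computed, so this count cannot be set against a background.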

How the data were processed

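The authors deposited log2 values from RMA, a tool named in the submitters' processing notes; the array type's probe content, the software version and scan dates are not given in the sources used here. RMA subtracts background, normalizes and summarises probes, which compresses low signals. Of 28996 rows, 21218 had 1 gene symbol in the platform table, 1881 several and 5897 none; rows with several were not used (Cox7c, Ndufa13 and Uqcrc2 occur in those alone). For each gene the row with the highest mean over the 6 arrays was kept, giving 18820 genes. Genotypes were compared with limma 3.58.1 (R 4.3.3; constant prior, two-sided, Benjamini-Hochberg over all genes, threshold 0.05); figures and counts used Python 3.11.15. The calculation was tested on simulated data. An array carries no count depth, so the number of arrays limits the precision, and p-values measure the spread between these samples. Within each complex the text names the members with the 4 smallest p, the 2 highest means and the largest positive difference, plus tissue forms and regulators; in other lists the 3 smallest p. Members and lists were chosen with earlier results of these data known. Alternatives changed scaling, row choice, signal filter, prior and weights, and left out single arrays.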

Additional observations from a re-analysis of the deposited data

Results flagged for a closer look

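In 5 of the 90 genes, 1 of the 4 Pcyt2+/- arrays lay further from the other 3 than Dixon's 95% limit allows. Chance flags about 1 in 20 groups, and the share flagged over all genes tested is not given here. In all 5 the array was replicate 3, at the low end, the array that was lowest in most of the brighter members. Ndufb11 was at 5.65 on it, where the next array was at 6.10. Atp5d was at 8.57 against 8.96, Cox5b at 5.13 against 5.26, Ndufa8 at 5.15 against 5.20 and Ndufs6 at 4.41 against 4.50. Ndufa8 lay below both wild type arrays with and without replicate 3. The groups of the other 4 overlapped with it, and without it Atp5d lay above both wild type arrays while Ndufb11, Cox5b and Ndufs6 still overlapped. Cox5b, Ndufa8 and Ndufs6 are named here because of these values, which were seen first.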

How the results depend on the processing

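Arrays number 4 and 2, and most genes lie near background, which limits what could be detected. A trended, robust prior called 1 member against 0. Members lower at an unadjusted limma p under 0.05 numbered 13 (against 3.44% of all genes). They numbered 4 of 51 after linear subtraction of each array's median signal (against 5.6% of genes in that fit). Among genes above 5 fitted alone they numbered 2 of 31 (against 8.71%). Those higher numbered 1 (against 1.86%), 0 in both settings (against 2% and 2.4%), and 4 without Pcyt2+/- replicate 3 (against 2.06%). Members below both wild type arrays numbered 20, 13 after quantile normalization, 6 among genes above 5 and 21 to 39 without single arrays; above both, 1, then 0 among genes above 5 and 1 to 9 (5 without Pcyt2+/- replicate 3 or wild type replicate 4, 9 without wild type replicate 3). Their shares over all genes moved too, to 10.1% to 23.4% below and 8.43% to 21.5% above without single arrays, the last without wild type replicate 3. These overlap counts, and those of lower means (68, then 40 of 51 and 25 of 31), were added after seeing the data. The median over members was -0.12 after linear subtraction and -0.061 above 5. By group in that order, medians were -0.14 and -0.20 (complex I core), -0.10 and -0.061 (accessory), -0.26 and -0.10 (complex II), -0.15 and -0.089 (complex IV), and after linear subtraction -0.15 (complex III) and -0.20 (Fo and stalk). Quantile normalization gave 0.041 for F1, -0.040 for Fo and stalk, 0.046 for Atp5b and -0.00012 for Cox7b2. Array weights gave -0.0068 for Uqcrb; the mean of rows gave -0.017 for Uqcrb and -0.027 for Atp5pb. The causes of these changes were not tested.
Ranges without single arrays that crossed 0, or moved by more than 1 SD between replicates, were -0.015 to -0.00033 for the complex I assembly factors, -0.049 to -0.024 for complex III, -0.18 to 0.21 for cytochrome c, -0.041 to 0.032 for ATP synthase F1 (above 0 without Pcyt2+/- replicate 3 or wild type replicate 4), -0.12 to -0.036 for ATP synthase Fo and stalk, -0.052 to 0.064 for Ndufs3, -0.38 to 0.042 for Ndufb11, -0.22 to 0.095 for Ndufb4, -0.0083 to 0.019 for Ndufaf2, -0.015 to 0.013 for Ndufaf3, -0.062 to 0.0068 for Sdha, -0.016 to 0.018 for Sdhd, -0.10 to 0.11 for Uqcrb, -0.18 to 0.21 for Cycs, -0.020 to 0.12 for Cox7b, -0.041 to 0.032 for Atp5b, -0.26 to 0.030 for Atp5md, -0.0093 to 0.028 for Atp5pb, -0.058 to 0.012 for Cox4i2, -0.051 to 0.072 for Cox6b1, -0.019 to 0.055 for Cox6b2, -0.021 to 0.0034 for Cox7a1, -0.00049 to 0.0083 for Cox7b2, -0.012 to 0.018 for Cox8b, -0.030 to 0.018 for Cox8c and -0.0047 to 0.011 for Ndufa4l2.
No label says that replicate numbers pair the samples, and only 3 and 4 occur in both groups, whose same-numbered arrays' deviations correlated at 0.147 and 0.0725 over all genes. Numbers 1 and 2 occur in Pcyt2+/- alone, so with the number as a replicate block the difference rested on replicates 3 and 4 of each group. Those include Pcyt2+/- replicate 3, the array lowest in most of the brighter members. In this fit 29 members were lower and 0 higher at an unadjusted limma p under 0.05 (against 3.73% and 1.56% of all genes). Of the members 0 were called, and medians were -0.059 for F1 and -0.17 for Fo and stalk. Under this block the sign turned in Ndufs3 (-0.0034), Ndufaf2 (-0.0098), Ndufaf3 (0.0068), Sdhd (-0.045), Uqcrb (-0.020), Cox7b (-0.011), Atp5d (-0.047), Atp5pb (-0.0044) and Cox8c (0.018).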
